A study of Mus musculus with 25 samples.

Results

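The genes described here are 39 genes of glycolysis and of the response to low oxygen, out of the 24061 genes in the count table of mouse skin stem cells, wound cells and tumour cells. They were taken by name, with no threshold on a measured value, and all 39 were found in the table and passed the filter on low counts in each of the 9 comparisons. They comprise 4 carriers of glucose and lactate, 9 enzymes of upper glycolysis, 2 regulators of phosphofructokinase and 6 enzymes of lower glycolysis. Another 4 act on the fate of pyruvate, 3 are the factor HIF-1α and its hydroxylases, and 11 are further genes that HIF is known to raise. Several steps have alternative isoenzymes in the list, so the choice of isoenzyme (Hk1 or Hk2, Aldoa or Aldoc, Ldha or Ldhb, Eno1 or Eno2) was also followed.

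Glycolysis splits glucose into pyruvate, and lactate dehydrogenase turns pyruvate into lactate, which monocarboxylate carriers move across the membrane. HIF-1α, encoded by Hif1a, is hydroxylated by the Egln enzymes when oxygen is present and is then degraded. When it is stable it binds DNA at a short core sequence and raises the transcription of glucose carriers, glycolytic enzymes and growth factors. The epidermis has no blood vessels of its own, and keratinocytes are known for making lactate even in the presence of oxygen.

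RNA was sequenced from 21 libraries of cells sorted from the skin or tumours of female B6 mice labelled as postnatal day 60, in sets whose names begin with CL, BK or DS. Open chromatin was mapped by ATAC-seq in 4 further libraries of CD1/B6 mixed female mice. Levels are CPM, counts scaled to a common library size, after TMM scaling over all 21 libraries, and "changed" is used of genes with an adjusted p under 0.05 in edgeR's quasi-likelihood test. Whether the libraries of one group are different animals is not stated, and p-values then cover only the spread between these libraries, which may be technical.

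In set CL, wounded cells were negative for lineage markers, high in integrin α6 and from Sox9CreER;R26-YFP mice. The YFP+ cells are called the wounded HFSC lineage here (2 libraries) and the YFP- cells wounded EpdSC (2 libraries). In this reporter the Cre is driven by Sox9, and a YFP- cell is any cell in which it did not act. Their references were hair follicle stem cells, HFSC, sorted as CD34+Sca1- (2 libraries), and epidermal stem cells, EpdSC, sorted as CD34-Sca1+ (2 libraries), both lineage-negative and high in integrin α6. The wound gate did not use CD34 or Sca1, so the gate and the wound changed together and cannot be told apart. Set BK held 1 wounded EpdSC library, labelled as lineage-negative and high in integrin α6 with no further marker, with 2 HFSC and 2 EpdSC libraries. Set DS held grafted GFP+ tumour cells of 3 kinds, HRas, HRas TbrKO and TbrKO, each as 1 integrin α6 high and 1 integrin α6 low library, and 1 library each of Tbr HFSC and Tbr EpdSC. The labels do not say which gene Tbr stands for, and it was not checked here. The column of the BK wounded library in the count table also carries the term A5pos, which the labels do not explain. For ATAC-seq, the wound cells were integrin α6 and Sca1 positive cells from full- and partial-thickness wounds, and the tumour cells were grafted stem cells of HRas-induced squamous carcinoma, high in integrins α6 and β1 and GFP positive. HFSC and EpdSC for ATAC-seq came from postnatal day 50 backskin.

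Library totals ran from 14216472 to 36425082 counts. The summed keratinocyte markers stood between 19820 and 147800 CPM in all 21 libraries, so each library held keratin-expressing cells. The 2 wounded EpdSC libraries of set CL also held leukocyte markers, 3523 and 2748 CPM summed over 6 genes, against 30.6 and 19.3 CPM in EpdSC. The wounded HFSC lineage was at 29.0 and 23.7 CPM for the same leukocyte genes. In bulk cells a smaller share of one cell type and less RNA per cell cannot be told apart.

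Promoters of 8 of the genes are printed as examples of genes that changed in wounded cells. Slc2a1, Ldha, Pgk1, Bnip3, Ankrd37, Adm and Slc16a3 rose in wounded cells of at least 1 lineage, and Ldhb fell. Each stretch runs from 250 bases before to 50 bases after a RefSeq transcript start of the gene in build GRCm38.p6, written 5′ to 3′ on the strand of the gene. Capitals mark the HIF core on either strand, ACGTG or GCGTG, read as CACGT or CACGC on the other strand. For Ldha, Slc16a3 and Ankrd37 the RefSeq gene begins further upstream than the start used here, and for Ldha the first of 2 windows in the RefSeq table is printed. A run of CACGTG, the E-box that other basic helix-loop-helix factors bind, is also a HIF core on both strands and is in capitals.

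Slc2a1 promoter at chr4:119108495-119108794, plus strand: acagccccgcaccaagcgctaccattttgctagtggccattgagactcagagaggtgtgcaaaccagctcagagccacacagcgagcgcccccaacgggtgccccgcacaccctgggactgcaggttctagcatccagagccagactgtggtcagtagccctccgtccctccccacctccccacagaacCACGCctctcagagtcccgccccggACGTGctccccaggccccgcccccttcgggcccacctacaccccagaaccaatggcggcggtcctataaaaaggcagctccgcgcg
Ldha promoter at chr7:46845554-46845853, plus strand: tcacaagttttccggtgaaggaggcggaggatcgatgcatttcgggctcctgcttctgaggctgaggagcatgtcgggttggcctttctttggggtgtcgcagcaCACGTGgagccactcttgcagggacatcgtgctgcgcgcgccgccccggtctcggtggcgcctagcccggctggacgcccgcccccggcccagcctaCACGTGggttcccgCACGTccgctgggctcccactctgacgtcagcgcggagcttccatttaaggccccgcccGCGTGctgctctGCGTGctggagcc
Pgk1 promoter at chrX:106186850-106187149, plus strand: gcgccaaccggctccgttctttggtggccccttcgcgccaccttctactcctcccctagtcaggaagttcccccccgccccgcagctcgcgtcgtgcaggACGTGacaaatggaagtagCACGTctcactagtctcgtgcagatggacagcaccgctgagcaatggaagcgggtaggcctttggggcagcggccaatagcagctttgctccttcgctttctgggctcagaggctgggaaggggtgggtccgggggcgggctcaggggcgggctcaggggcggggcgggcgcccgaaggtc
Bnip3 promoter at chr7:138909457-138909756, minus strand: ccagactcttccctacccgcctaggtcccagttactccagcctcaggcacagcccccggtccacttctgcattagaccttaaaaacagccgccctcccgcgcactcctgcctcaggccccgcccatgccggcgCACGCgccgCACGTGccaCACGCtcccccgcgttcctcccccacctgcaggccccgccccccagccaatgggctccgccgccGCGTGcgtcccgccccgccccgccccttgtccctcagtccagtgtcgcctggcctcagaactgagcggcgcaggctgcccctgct
Ankrd37 promoter at chr8:45999801-46000100, minus strand: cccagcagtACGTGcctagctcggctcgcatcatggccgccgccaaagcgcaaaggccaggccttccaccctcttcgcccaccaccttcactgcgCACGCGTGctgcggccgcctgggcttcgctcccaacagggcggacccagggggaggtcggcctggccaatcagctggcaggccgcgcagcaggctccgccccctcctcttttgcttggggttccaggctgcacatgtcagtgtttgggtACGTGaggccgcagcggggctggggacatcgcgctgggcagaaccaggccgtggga
Adm promoter at chr7:110627407-110627706, plus strand: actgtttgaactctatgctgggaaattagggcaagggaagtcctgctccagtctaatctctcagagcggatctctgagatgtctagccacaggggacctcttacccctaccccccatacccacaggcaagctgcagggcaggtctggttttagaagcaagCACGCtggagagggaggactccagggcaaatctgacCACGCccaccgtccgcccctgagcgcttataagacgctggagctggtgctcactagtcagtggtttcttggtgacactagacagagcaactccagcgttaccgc
Slc16a3 promoter at chr11:120948817-120949116, plus strand: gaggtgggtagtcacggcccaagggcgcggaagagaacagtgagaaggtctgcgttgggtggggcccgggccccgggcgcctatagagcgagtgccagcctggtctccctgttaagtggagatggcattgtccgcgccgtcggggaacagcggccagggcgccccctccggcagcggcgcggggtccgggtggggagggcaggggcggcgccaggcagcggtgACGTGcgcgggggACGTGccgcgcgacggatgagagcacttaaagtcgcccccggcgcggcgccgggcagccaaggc
Ldhb promoter at chr6:142507908-142508207, minus strand: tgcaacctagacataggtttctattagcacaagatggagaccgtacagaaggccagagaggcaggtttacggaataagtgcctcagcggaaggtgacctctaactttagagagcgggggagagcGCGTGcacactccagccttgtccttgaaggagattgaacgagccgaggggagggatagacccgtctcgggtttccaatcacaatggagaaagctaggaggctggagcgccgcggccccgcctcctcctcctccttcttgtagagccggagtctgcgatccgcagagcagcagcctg

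Ldha, which encodes the muscle-type subunit of lactate dehydrogenase, had 5 core matches in this window, of which 2 were E-boxes. Bnip3, a mitophagy receptor, had 4, and 1 of them was an E-box. Ankrd37, an ankyrin repeat gene known as a HIF target, had 3 merged matches. Slc2a1, Pgk1, Adm and Slc16a3 had 2 each. Ldhb, which encodes the heart-type subunit of lactate dehydrogenase, had 1. A match is a description of letters in the window and not a measured binding site. The 8 do not stand for the whole list in number of matches. Car9 and Egln3, which rose, had 1 match each, and Pfkm, which fell in the HFSC lineage, had 2 in its richest window.

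Wounding came with higher levels of most of these genes in both lineages of set CL. In the wounded HFSC lineage 30 of 39 rose and 3 fell against HFSC, where 21.4% of the 14831 genes tested rose and 24.7% fell. In wounded EpdSC 31 of 39 rose and 2 fell against EpdSC, where 30.2% of all genes tested rose and 28.2% fell. The median log2 fold change of the 39 genes was 1.85 in the HFSC lineage, beside -0.10 over all genes tested, and 2.19 in EpdSC, beside -0.04 over all genes tested. Of the 33 genes called in each comparison, 28 rose in both, 2 fell in both and none moved in opposite directions. This overlap was counted for the 39 genes alone and not over all genes tested. Together the 39 genes took 1.14% and 1.18% of all counts in the wounded HFSC lineage, against 0.304% and 0.327% in HFSC. They took 1.63% and 1.44% in wounded EpdSC, against 0.328% and 0.339% in EpdSC. With library totals alone in place of TMM, the median over all genes tested was -0.47 in the HFSC lineage and -0.32 in EpdSC, and 27 and 28 of the 39 genes rose. In that setting 6871 and 8632 genes were called in all, 29.1% and 42.3% of them higher.

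**Figure D1:**
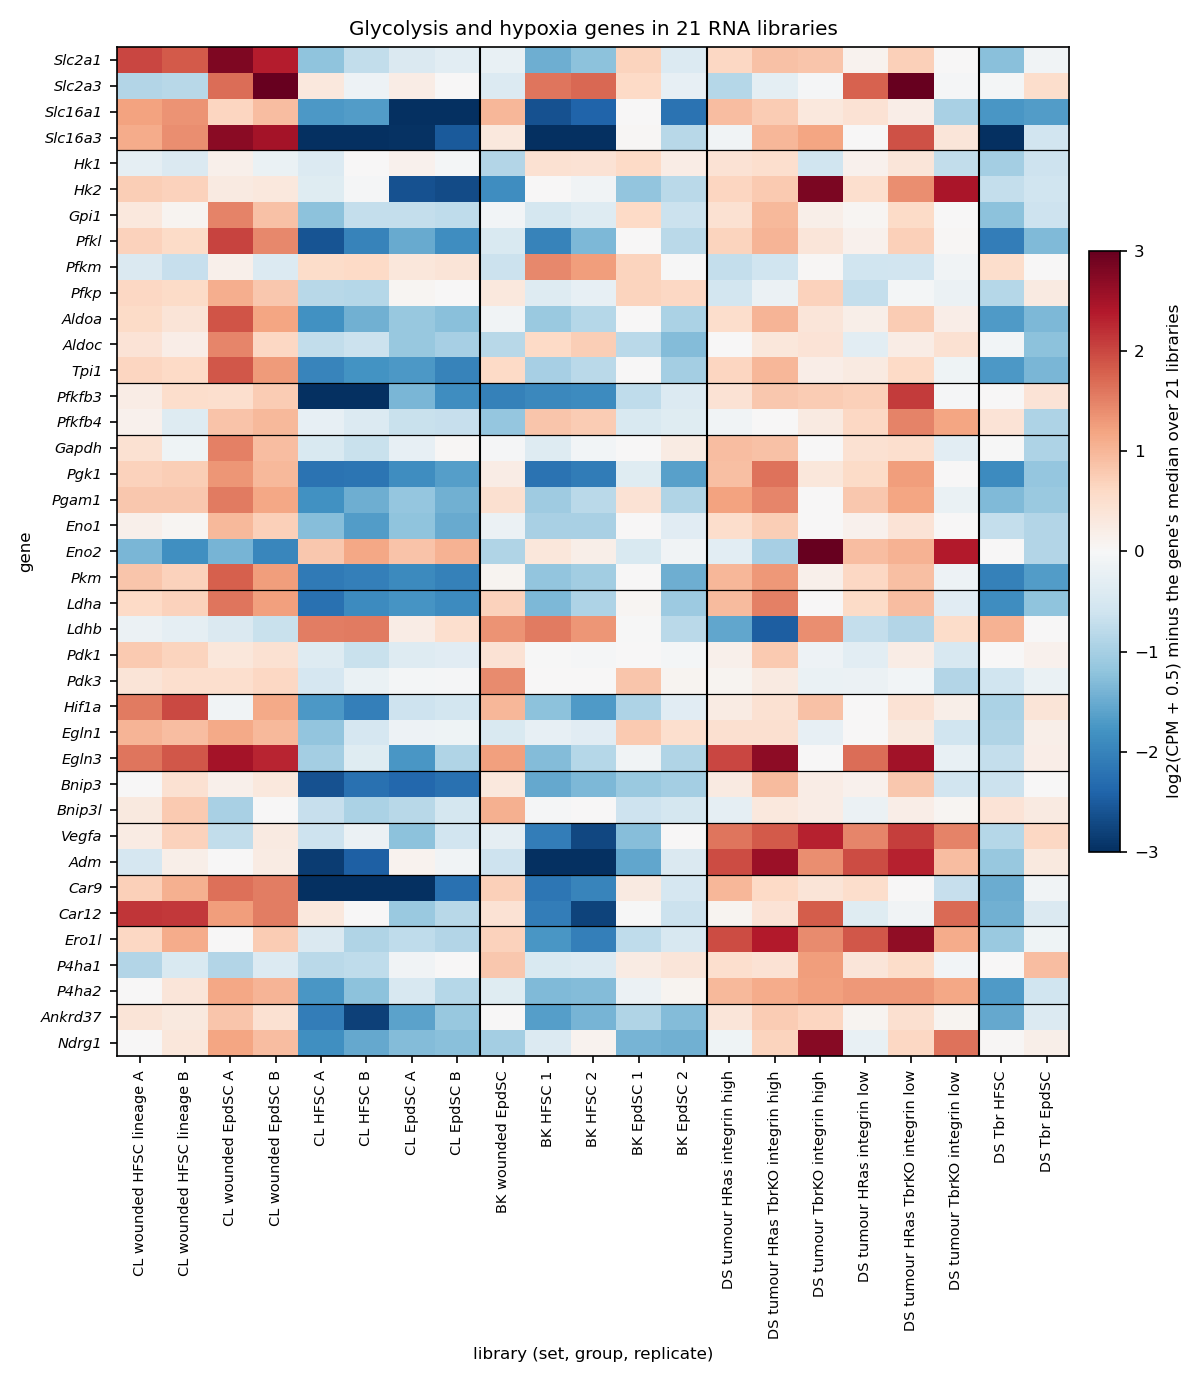
Level of each of the 39 genes (down the page, in groups by role) in each of the 21 RNA libraries (across). Values are log2 of CPM with 0.5 added, minus the median of that gene over all libraries. The wounded CL libraries and the tumour libraries stand above the unwounded libraries for most genes, while Ldhb, Pfkm and Eno2 run the other way in wounded CL cells.

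Glucose enters by facilitated carriers, and Slc2a1, the main glucose carrier of keratinocytes, was at 1591 and 1398 CPM in the wounded HFSC lineage, against 169 and 237 CPM in HFSC. It was at 2752 and 2024 CPM in wounded EpdSC, against 293 and 315 CPM in EpdSC. The wounded and unwounded libraries did not overlap, with log2 fold changes of 2.87 ± 0.26 (adjusted p = 0.000153) in the HFSC lineage and 2.96 ± 0.26 (adjusted p = 0.000109) in EpdSC. Slc2a3, a carrier of higher affinity known from neurons and leukocytes, was low: 1.18 and 1.21 CPM in the wounded HFSC lineage, against 3.34 and 2.27 CPM in HFSC. In wounded EpdSC it was at 9.26 and 25.4 CPM, against 3.1 and 2.57 CPM in EpdSC. It rose in EpdSC by a log2 fold change of 2.60 ± 0.51 (adjusted p = 0.00343), and did not pass the test in the HFSC lineage at -1.24 ± 0.51 (adjusted p = 0.0814). The 2 libraries in which Slc2a3 rose are those with leukocyte markers, and the part of these markers in its level was not tested.

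Lactate leaves cells through Slc16a3, the monocarboxylate carrier MCT4, and moves either way through Slc16a1, MCT1. Slc16a3 gave the largest log2 fold change of the 39 genes in both wound comparisons. It was at 149 and 181 CPM in the wounded HFSC lineage, against 0.532 and 2.19 CPM in HFSC, a log2 fold change of 6.94 ± 0.62 (adjusted p = 0.000142). It was at 452 and 387 CPM in wounded EpdSC, against 8.34 and 11.4 CPM in EpdSC, a log2 fold change of 5.39 ± 0.56 (adjusted p = 0.000214). The 4 wounded libraries stood far above the 4 unwounded ones. Slc16a1 was at 224 and 246 CPM in the wounded HFSC lineage, against 28.9 and 29.8 CPM in HFSC, and at 151 and 184 CPM in wounded EpdSC, against 5.15 and 8.29 CPM in EpdSC. Its log2 fold changes were 3.00 ± 0.27 (adjusted p = 0.000148) in the HFSC lineage and 4.63 ± 0.29 (adjusted p = 3.45e-05) in EpdSC. Between the 2 wounded groups its log2 fold change was 0.49 ± 0.25 (adjusted p = 0.157) and did not pass.

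Of the 9 genes of upper glycolysis, 7 rose in each lineage. Hexokinase traps glucose in the cell. Hk2, the inducible hexokinase, was at 108 and 105 CPM in the wounded HFSC lineage, against 50.1 and 62.6 CPM in HFSC, and at 77.5 and 80.5 CPM in wounded EpdSC, against 10.1 and 9.64 CPM in EpdSC. The log2 fold changes were 0.90 ± 0.19 (adjusted p = 0.00613) and 2.98 ± 0.20 (adjusted p = 3.83e-05). Hk1, the housekeeping hexokinase, was at 129 and 114 CPM in the wounded HFSC lineage, against 117 and 155 CPM in HFSC, and the libraries overlapped. In wounded EpdSC it was at 172 and 136 CPM, against 170 and 149 CPM in EpdSC, and these overlapped too. Its log2 fold changes, -0.18 ± 0.22 (adjusted p = 0.534) in the HFSC lineage and -0.07 ± 0.22 (adjusted p = 0.807) in EpdSC, did not pass the test.

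Phosphofructokinase commits glucose to glycolysis, and its liver subunit Pfkl moved most among its 3 subunits. Pfkl was at 429 and 398 CPM in the wounded HFSC lineage, against 43.4 and 65.7 CPM in HFSC, a log2 fold change of 2.91 ± 0.30 (adjusted p = 0.000269). It was at 1075 and 721 CPM in wounded EpdSC, against 93.4 and 72 CPM in EpdSC, a log2 fold change of 3.42 ± 0.31 (adjusted p = 0.000117). The platelet subunit Pfkp rose less, by a log2 fold change of 1.43 ± 0.17 in the HFSC lineage and 0.91 ± 0.17 in EpdSC. The muscle subunit Pfkm fell in the HFSC lineage, to 22 and 18.4 CPM in wounded cells, against 43.7 and 45.6 CPM in HFSC, a log2 fold change of -1.16 ± 0.23 (adjusted p = 0.00481). In wounded EpdSC Pfkm was at 33.5 and 22.4 CPM, against 37.7 and 39.4 CPM in EpdSC, and the log2 fold change of -0.48 ± 0.23 (adjusted p = 0.0976) did not pass.

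Aldolase splits the six-carbon sugar, and its form A was the more strongly raised. Aldoa was at 1305 and 1143 CPM in the wounded HFSC lineage, against 249 and 319 CPM in HFSC, and at 3238 and 1991 CPM in wounded EpdSC, against 395 and 362 CPM in EpdSC. Its log2 fold changes were 2.10 ± 0.27 (adjusted p = 0.000757) and 2.77 ± 0.28 (adjusted p = 0.000188). Aldoc, the brain-type form, was at 37.2 and 32 CPM in the wounded HFSC lineage, against 16.6 and 17.8 CPM in HFSC, and at 77.8 and 43.6 CPM in wounded EpdSC, against 12.4 and 13.9 CPM in EpdSC. The log2 fold changes were 1.00 ± 0.27 (adjusted p = 0.0198) and 2.19 ± 0.28 (adjusted p = 0.000556), and the call in the HFSC lineage was lost with library totals alone. Tpi1, triosephosphate isomerase, was at 703 and 680.5 CPM in the wounded HFSC lineage, against 114 and 129 CPM in HFSC. It was at 1633 and 1088 CPM in wounded EpdSC, against 136 and 112 CPM in EpdSC, a log2 fold change of 3.44 ± 0.26 (adjusted p = 5.19e-05). Gpi1, glucose-6-phosphate isomerase, rose by a log2 fold change of 1.14 ± 0.26 in the HFSC lineage and 1.94 ± 0.27 in EpdSC.

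Pfkfb3 and Pfkfb4 make fructose-2,6-bisphosphate, the activator of phosphofructokinase, and Pfkfb3 has the stronger kinase. Pfkfb3 was at 50.6 and 63 CPM in the wounded HFSC lineage, against 4.79 and 4.04 CPM in HFSC, a log2 fold change of 3.68 ± 0.28 (adjusted p = 7.16e-05). It was at 61.1 and 73.5 CPM in wounded EpdSC, against 16.4 and 11.5 CPM in EpdSC, a log2 fold change of 2.25 ± 0.26 (adjusted p = 0.000318). All 4 wounded libraries were above all 4 unwounded ones. Pfkfb4 was at 14 and 15.1 CPM in wounded EpdSC, against 4.57 and 4.43 CPM in EpdSC, and rose. In the wounded HFSC lineage it was at 8.25 and 5.61 CPM, against 6.27 and 5.54 CPM in HFSC, with overlapping libraries.

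Of the 6 genes of lower glycolysis, 4 rose and 1 fell in the HFSC lineage, and 5 rose and 1 fell in EpdSC. Pgk1, phosphoglycerate kinase, makes the first ATP of the pathway. It was at 61.1 and 62.7 CPM in the wounded HFSC lineage, against 7.63 and 7.85 CPM in HFSC, a log2 fold change of 2.99 ± 0.21 (adjusted p = 5.96e-05). It was at 94.7 and 73.6 CPM in wounded EpdSC, against 10.01 and 11.5 CPM in EpdSC, a log2 fold change of 2.95 ± 0.21 (adjusted p = 4.23e-05). The 2 log2 fold changes of Pgk1 were alike, and their difference was 0.04 ± 0.27. Pkm, pyruvate kinase of muscle and growing tissue, makes the second ATP. It was at 2155 and 1938 CPM in the wounded HFSC lineage, against 276 and 291 CPM in HFSC, and at 4191 and 2877 CPM in wounded EpdSC, against 320.4 and 296 CPM in EpdSC. Its log2 fold changes were 2.84 ± 0.24 (adjusted p = 0.000111) and 3.50 ± 0.24 (adjusted p = 4.06e-05). Pgam1, phosphoglycerate mutase, rose by 2.56 ± 0.26 in the HFSC lineage and 2.77 ± 0.26 in EpdSC on the log2 scale.

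Enolase showed opposite changes of its forms. Eno2, the form known from neurons, fell to 0.52 and 0.227 CPM in the wounded HFSC lineage, against 4.05 and 5.31 CPM in HFSC, a log2 fold change of -3.63 ± 0.57 (adjusted p = 0.00177). It fell to 0.498 and 0.174 CPM in wounded EpdSC, against 4.27 and 4.88 CPM in EpdSC, a log2 fold change of -3.79 ± 0.60 (adjusted p = 0.00134). Eno1, the widespread form, was at 3.71 and 3.41 CPM in the wounded HFSC lineage, against 1.06 and 0.693 CPM in HFSC, and at 6.92 and 5.67 CPM in wounded EpdSC, against 1.13 and 0.836 CPM in EpdSC. It rose by a log2 fold change of 2.00 ± 0.39 (adjusted p = 0.00452) in the HFSC lineage and 2.64 ± 0.40 (adjusted p = 0.0011) in EpdSC. The levels and fold changes of Eno1 and Gapdh are uncertain. Deposited tables with Ensembl identifiers for the 8 CL libraries held 118-fold more Eno1 counts and 20.8-fold more Gapdh counts in sum than the table used here, while 30 of the 39 genes lay within 10% between the tables. Gapdh, glyceraldehyde-3-phosphate dehydrogenase, was at 8.51 and 5.54 CPM in wounded EpdSC, against 2.18 and 2.76 CPM in EpdSC, and at 3.85 and 2.39 CPM in the wounded HFSC lineage, against 1.8 and 1.5 CPM in HFSC. In the Ensembl tables Eno1 had log2 fold changes of 3.22 in the HFSC lineage and 3.83 in EpdSC, and Gapdh had 3.43 in EpdSC, against 1.49 in the table used here. Gapdh was there at 74.8 and 86.8 CPM in the wounded HFSC lineage, against 17.2 and 17.8 CPM in HFSC. When those other tables were used, 31 of the 39 genes rose in each lineage. Of 17025 genes tested there, 7457 were called in the HFSC lineage and 9888 in EpdSC, and 45.7% and 50.4% of these calls were higher. Pgk1, Pgam1, Ldha, Aldoa and Tpi1 also have close copies in the mouse genome that could take some of their reads.

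Among the genes that decide the fate of pyruvate, Ldha rose and Ldhb fell in both lineages. Ldha was at 1325 and 1404 CPM in the wounded HFSC lineage, against 183 and 236 CPM in HFSC, a log2 fold change of 2.69 ± 0.23 (adjusted p = 0.000127). It was at 2661 and 2045 CPM in wounded EpdSC, against 254 and 237 CPM in EpdSC, a log2 fold change of 3.25 ± 0.24 (adjusted p = 5.05e-05). Ldhb fell to 10.6 and 9.97 CPM in the wounded HFSC lineage, against 36.2 and 36.6 CPM in HFSC, a log2 fold change of -1.83 ± 0.21 (adjusted p = 0.000459). It fell to 8.76 and 7.37 CPM in wounded EpdSC, against 14.2 and 17.3 CPM in EpdSC, a log2 fold change of -0.98 ± 0.21 (adjusted p = 0.00557). No wounded library overlapped an unwounded one for either gene. Pdk1 and Pdk3, kinases that switch off pyruvate dehydrogenase, rose modestly. Pdk1 rose by 1.25 ± 0.18 in the HFSC lineage and 0.75 ± 0.18 in EpdSC on the log2 scale, and Pdk3 by 0.80 ± 0.20 and 0.61 ± 0.20. With library totals alone Pdk3 lost its call in both lineages and Pdk1 in EpdSC.

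**Figure D2:**
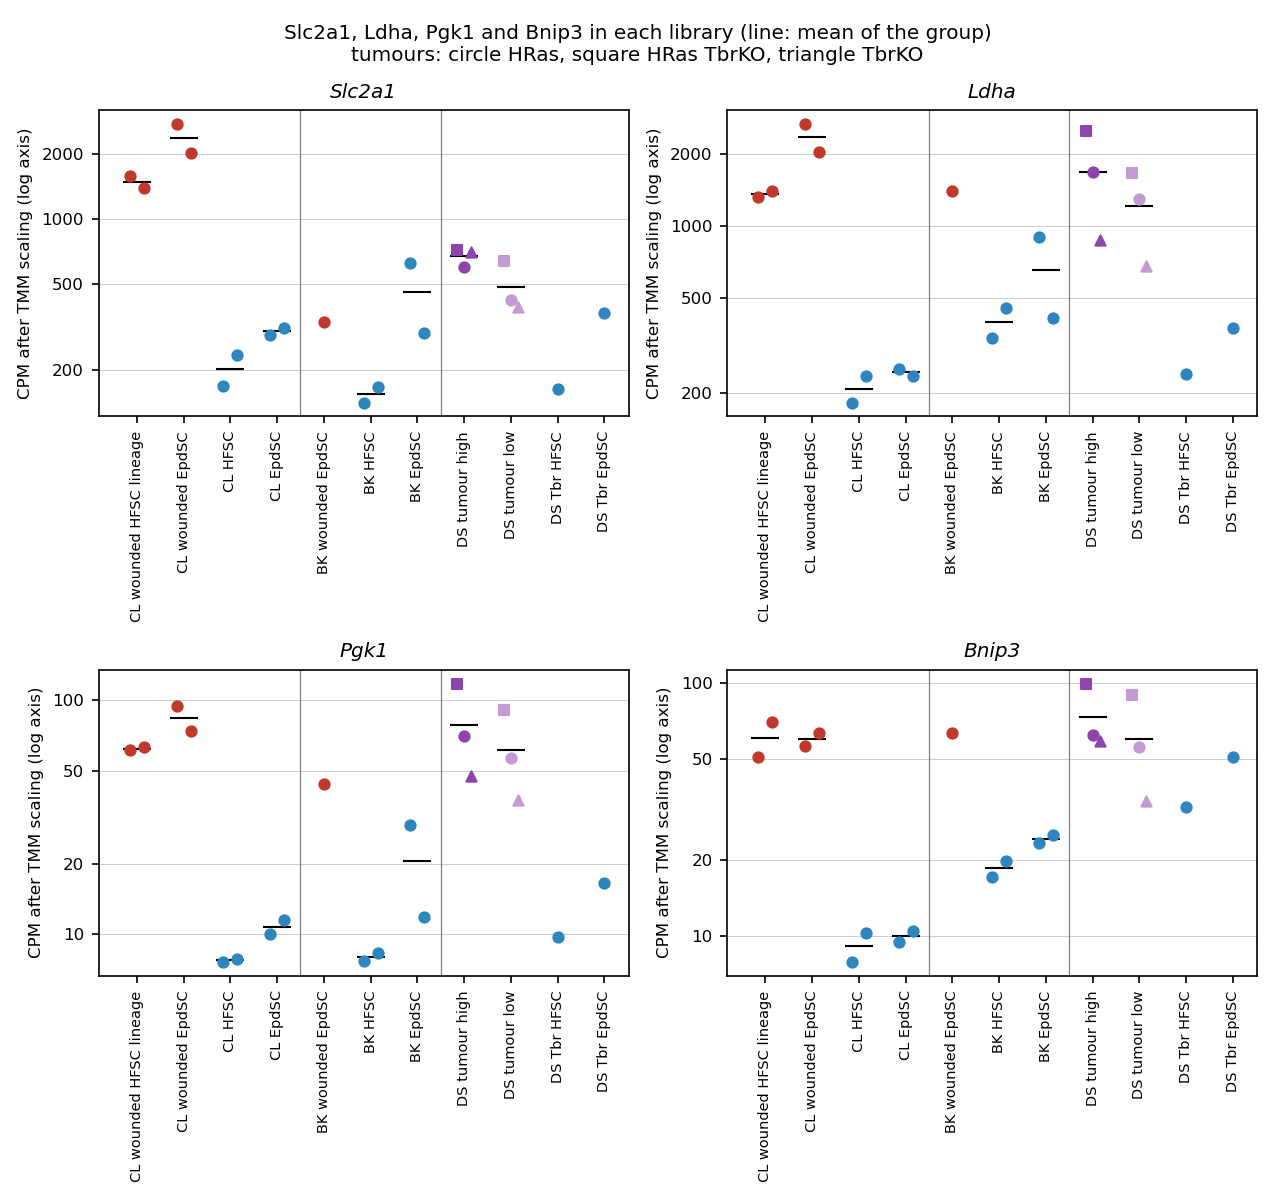
CPM of Slc2a1, Ldha, Pgk1 and Bnip3 (log axes) in every RNA library, 1 point a library, with wounded and tumour groups left of their references. The wounded CL points and the tumour points lie above their unwounded or Tbr references for Slc2a1, Ldha and Pgk1.

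HIF itself and its oxygen sensors rose in both lineages. Hif1a was at 1390 and 1866 CPM in the wounded HFSC lineage, against 143 and 113 CPM in HFSC, a log2 fold change of 3.67 ± 0.43 (adjusted p = 0.000455). It was at 439 and 1029 CPM in wounded EpdSC, against 306 and 322 CPM in EpdSC, a smaller log2 fold change of 1.22 ± 0.39 (adjusted p = 0.0279) that lost its call with library totals alone. The 2 wounded EpdSC libraries differed from each other more than the 2 EpdSC libraries did. Egln3, a hydroxylase gene that HIF itself raises, was at 193 and 231 CPM in the wounded HFSC lineage, against 30.6 and 48.5 CPM in HFSC. It was at 354 and 310 CPM in wounded EpdSC, against 18.3 and 33.5 CPM in EpdSC, a log2 fold change of 3.67 ± 0.37 (adjusted p = 0.000188). Egln1, the main oxygen sensor, rose by 1.77 ± 0.25 in the HFSC lineage and 1.19 ± 0.25 in EpdSC on the log2 scale.

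Genes that HIF is known to raise outside glycolysis mostly rose as well. Bnip3 was at 51.1 and 70.5 CPM in the wounded HFSC lineage, against 7.93 and 10.3 CPM in HFSC, a log2 fold change of 2.73 ± 0.26 (adjusted p = 0.000192). It was at 56.5 and 63.4 CPM in wounded EpdSC, against 9.51 and 10.5 CPM in EpdSC, a log2 fold change of 2.57 ± 0.26 (adjusted p = 0.000183). Its paralogue Bnip3l rose in the HFSC lineage, by 1.39 ± 0.35 (adjusted p = 0.0136), a call lost with library totals alone. In EpdSC Bnip3l had a log2 fold change of 0.27 ± 0.34 (adjusted p = 0.522). Car9, the carbonic anhydrase often used as a hypoxia marker, followed Slc16a3 as the gene with the next largest log2 fold change in both lineages. It was at 12.8 and 16.3 CPM in the wounded HFSC lineage, against 0.503 and 0.269 CPM in HFSC, a log2 fold change of 5.18 ± 0.49 (adjusted p = 0.000188). It was at 25 and 22.9 CPM in wounded EpdSC, against 0.461 and 1.22 CPM in EpdSC, a log2 fold change of 4.88 ± 0.48 (adjusted p = 0.000167). Car12, a second membrane carbonic anhydrase, rose by 1.96 ± 0.21 in the HFSC lineage and 2.35 ± 0.22 in EpdSC on the log2 scale.

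The secreted factors behaved less uniformly. Vegfa, which drives vessel growth, was at 63.6 and 85.9 CPM in the wounded HFSC lineage, against 34.6 and 46.9 CPM in HFSC, a log2 fold change of 0.87 ± 0.39 (adjusted p = 0.106) that did not pass. In wounded EpdSC it was at 31.7 and 64.6 CPM, against 22.6 and 35.7 CPM in EpdSC, with overlapping libraries. Adm, the vasodilator adrenomedullin, was at 9.67 and 16 CPM in the wounded HFSC lineage, against 1.51 and 2.15 CPM in HFSC, a log2 fold change of 2.80 ± 0.36 (adjusted p = 0.00068). In wounded EpdSC it was at 14 and 16.8 CPM, against 15.2 and 13.1 CPM in EpdSC, a log2 fold change of 0.11 ± 0.33 (adjusted p = 0.78). Both HFSC libraries stood below the other 6 CL libraries for Adm. Ankrd37 was at 14.3 and 13.3 CPM in the wounded HFSC lineage, against 2.16 and 1.12 CPM in HFSC, a log2 fold change of 3.05 ± 0.37 (adjusted p = 0.000577), and rose by 2.12 ± 0.36 in EpdSC. Ndrg1, a stress-responsive gene of differentiation, rose by 1.84 ± 0.22 in the HFSC lineage and 2.32 ± 0.23 in EpdSC on the log2 scale. Of the genes for protein folding and collagen, Ero1l, an oxidase of disulphide bonds, and P4ha2, a subunit of collagen prolyl hydroxylase, rose in both lineages, by log2 fold changes of 1.26 to 1.76. The other subunit, P4ha1, had a log2 fold change of 0.12 ± 0.24 in the HFSC lineage and -0.59 ± 0.24 in EpdSC and passed in neither.

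Markers of other cells and of handling moved with the wound. In wounded EpdSC all 6 leukocyte and all 6 fibroblast markers rose, the fibroblast sum being 646 and 692 CPM, against 2.85 and 2.51 CPM in EpdSC. In the wounded HFSC lineage the sums were 29.0 and 23.7 CPM for leukocyte markers and 9.81 and 6.60 CPM for fibroblast markers, against 37.4 and 102 CPM and 36.9 and 39.6 CPM in HFSC. In wounded EpdSC 3 of 4 endothelial and 3 of 4 melanocyte markers tested also rose. Genes of dissociation stress were lower in wounded cells, 11 of 12 in the HFSC lineage and 10 of 12 in EpdSC, where the other 2 rose. The difference in median log2 CPM between 1703 long genes (over 100000 bases) and 3446 short genes (under 10000 bases) was -1.31 and -0.30 in wounded EpdSC, against 0.77 and 0.71 in EpdSC. It was 0.04 and 0.40 in the wounded HFSC lineage, against 0.73 and 0.61 in HFSC. The 39 genes had a median span of 23640 bases, beside 22906 over all genes above 1 CPM. After removal of the trend with span 33 of them were called in the HFSC lineage and 34 in EpdSC, beside 7317 and 8629 of 14831 genes in all. The part of handling stress in the levels was not tested.

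The wound responses of the lineages were set against each other by the test of their difference, HFSC lineage minus EpdSC. Of the 39 genes 3 were higher and 4 lower, where 5.31% of all genes tested were higher and 10.5% lower, so the members were called about as often as other genes. The median difference was -0.11, beside -0.06 over all genes tested. Adm had a difference of 2.69 ± 0.48 (adjusted p = 0.0101), Hif1a of 2.45 ± 0.55 (adjusted p = 0.0245) and Pfkfb3 of 1.42 ± 0.35 (adjusted p = 0.0348), each a larger response in the HFSC lineage. Slc2a3 had a difference of -3.84 ± 0.72 (adjusted p = 0.0122), Hk2 of -2.08 ± 0.27 (adjusted p = 0.00308), Slc16a1 of -1.64 ± 0.36 (adjusted p = 0.0232) and Pfkfb4 of -1.46 ± 0.39 (adjusted p = 0.0411), each a larger response in EpdSC. Slc16a1 and Hk2 had been lower in EpdSC before wounding, and Pfkfb3 and Adm lower in HFSC, in the same HFSC and EpdSC libraries. The number called was 1 without EpdSC library A, 3 without EpdSC library B, HFSC library A or wounded HFSC lineage library B, 4 without HFSC library B or wounded HFSC lineage library A, and 16 without wounded EpdSC library B. Pfkfb3 lost its call when the trend with span was removed (adjusted p = 0.0641) and with library totals alone (adjusted p = 0.0554). With single libraries left out, Pfkfb3 passed only without either wounded EpdSC library, and Pfkfb4 only without wounded EpdSC library B.

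**Figure D3:**
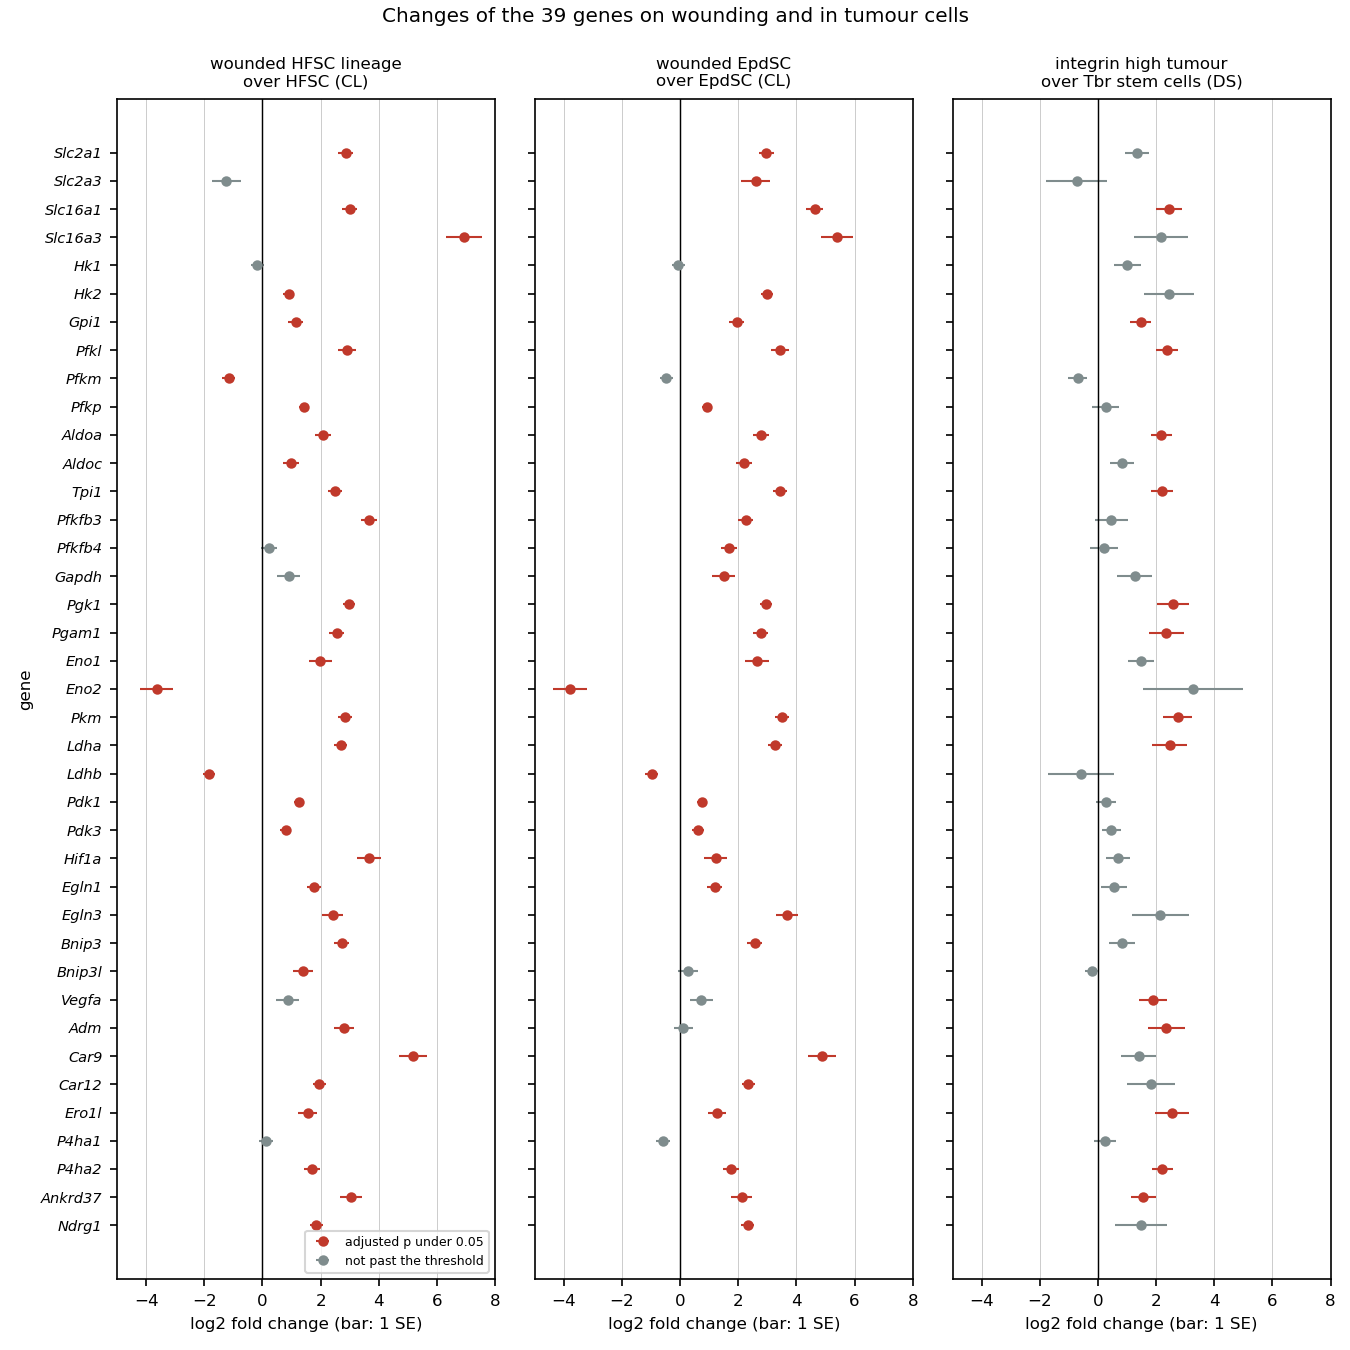
Log2 fold change of each of the 39 genes in wounded HFSC lineage against HFSC, wounded EpdSC against EpdSC (both set CL) and integrin high tumour cells against Tbr skin stem cells (set DS), with the standard error of the fit as bars. Most genes lie right of 0 in all 3, Slc16a3 and Car9 reach furthest right in the wound comparisons, and Eno2 and Ldhb lie left of 0 in both wound comparisons.

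The 2 wounded groups were also compared with each other. Of the 39 genes, 1 was higher and 9 were lower in the wounded HFSC lineage than in wounded EpdSC, where 6.8% of all genes tested were higher and 12.4% lower. The median log2 fold change was -0.44, beside -0.01 over all genes tested. The 9 were Slc2a3, Gpi1, Pfkl, Aldoa, Tpi1, Pfkfb4, Pkm, Ldha and Ndrg1, and apart from Slc2a3 at -3.86 ± 0.54 (adjusted p = 0.00443) their log2 fold changes ran from -1.12 to -0.79. Gpi1 was at 390.2 and 330 CPM in the wounded HFSC lineage and 869 and 576 CPM in wounded EpdSC. Ndrg1 was at 301 and 379.7 CPM in the wounded HFSC lineage and 687 and 569 CPM in wounded EpdSC. None of the 9 overlapped between the groups. Pfkl had a log2 fold change of -1.12 ± 0.28 (adjusted p = 0.0377), Aldoa of -1.09 ± 0.27 (adjusted p = 0.0347) and Ldha of -0.79 ± 0.22 (adjusted p = 0.0464). Car12 was the gene higher in the wounded HFSC lineage, at 996 and 985 CPM, against 539 and 649 CPM in wounded EpdSC, a log2 fold change of 0.73 ± 0.21 (adjusted p = 0.0471). This call was lost with RLE factors (adjusted p = 0.0538), library totals alone (adjusted p = 0.0528), the Ensembl tables (adjusted p = 0.0563), these 4 libraries alone (adjusted p = 0.123) and the trend with span removed (adjusted p = 0.223), and without either wounded HFSC lineage library or wounded EpdSC library A. The number called was 2 when the fit used these 4 libraries alone, 1 without either wounded HFSC lineage library or without wounded EpdSC library A, and 23 without wounded EpdSC library B. The HFSC lineage also had 6 of 6 leukocyte markers lower, and wounded EpdSC library A had the lowest long-minus-short difference. The part of either in these differences was not tested.

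The unwounded stem cells were compared in 2 separate sets. In set CL, 4 of the 39 genes were higher and 4 lower in HFSC than in EpdSC, where 7.19% of all genes tested were higher and 3.63% lower, and the median log2 fold change was -0.23, beside -0.02 over all genes. In set BK, 2 were higher and 7 lower, where 7.91% of all genes tested were higher and 6.47% lower, and the median was -0.62, beside -0.04 over all genes. Of the 8 genes called in set CL and the 9 called in set BK, 4 were called in the same direction in both and 1, Car12, in opposite directions. The overlap of the 2 sets was likewise not counted over all genes tested.

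The 4 shared genes were Ldhb, which was higher in HFSC, and Slc16a3, Pfkfb3 and Adm, which were lower. Ldhb was at 36.2 and 36.6 CPM in HFSC and 14.2 and 17.3 CPM in EpdSC of set CL, a log2 fold change of 1.20 ± 0.21 (adjusted p = 0.00968). In set BK it was at 36.5 and 30.9 CPM in HFSC and 11.9 and 6.72 CPM in EpdSC, a log2 fold change of 1.84 ± 0.38 (adjusted p = 0.0262). Every HFSC library was above every EpdSC library of its own set. Slc16a3 was at 2.54 and 4.89 CPM in HFSC and 69.9 and 38.3 CPM in EpdSC of set BK, with log2 fold changes of -3.86 ± 0.51 (adjusted p = 0.00689) in set BK and -2.89 ± 0.54 (adjusted p = 0.013) in set CL. Adm was at 0.257 and 0.549 CPM in HFSC and 4.47 and 10.2 CPM in EpdSC of set BK, with log2 fold changes of -4.18 ± 0.67 (adjusted p = 0.0121) in set BK and -2.96 ± 0.36 (adjusted p = 0.00201) in set CL. Pfkfb3 was at 11 and 11.3 CPM in HFSC and 25.1 and 32.5 CPM in EpdSC of set BK. The log2 fold changes were -1.38 ± 0.32 (adjusted p = 0.0381) in set BK and -1.67 ± 0.26 (adjusted p = 0.00585) in set CL.

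Other genes were called in one set. Hk2 had a log2 fold change of 2.50 ± 0.20 (adjusted p = 0.000386) in set CL and 0.94 ± 0.29 (adjusted p = 0.09) in set BK, where it was at 64.4 and 59.7 CPM in HFSC and 27.9 and 36.4 CPM in EpdSC. Neither group overlapped the other in either set. Pfkp was at 159 and 156 CPM in HFSC and 295 and 283 CPM in EpdSC of set CL, lower in HFSC by -0.89 ± 0.17 (adjusted p = 0.0152), and had -0.96 ± 0.30 (adjusted p = 0.0863) in set BK. Aldoc was higher in HFSC of set BK, at 42.7 and 46.6 CPM in HFSC and 15.7 and 11.1 CPM in EpdSC, a log2 fold change of 1.73 ± 0.32 (adjusted p = 0.019). Its log2 fold change in set CL was 0.38 ± 0.28 (adjusted p = 0.504). Car9, at 1.29 and 1.53 CPM in HFSC and 9.27 and 5.19 CPM in EpdSC of set BK, was lower in HFSC by -2.36 ± 0.45 (adjusted p = 0.0208). Ero1l, at 12.3 and 9.92 CPM in HFSC and 24.8 and 30.1 CPM in EpdSC of set BK, was lower by -1.32 ± 0.30 (adjusted p = 0.037), and P4ha2, at 8.86 and 9.02 CPM in HFSC and 20.3 and 24.6 CPM in EpdSC, by -1.34 ± 0.32 (adjusted p = 0.0402).

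Slc16a1 and Car12 had log2 fold changes of opposite sign in the 2 sets, and Car12 passed in both. Slc16a1 was higher in HFSC of set CL, by 2.13 ± 0.27 (adjusted p = 0.00235), and had a log2 fold change of -1.83 ± 0.69 (adjusted p = 0.139) in set BK, where it was at 15.2 and 17.7 CPM in HFSC and 96.4 and 20.5 CPM in EpdSC. Car12 was at 281 and 225 CPM in HFSC and 104 and 127 CPM in EpdSC of set CL, a log2 fold change of 1.12 ± 0.21 (adjusted p = 0.0129). In set BK it was at 52.9 and 32.5 CPM in HFSC and 224 and 144 CPM in EpdSC, a log2 fold change of -2.12 ± 0.40 (adjusted p = 0.0197). The 2 EpdSC libraries of set BK were unlike each other, with Slc2a1 at 627 and 297 CPM and Pgk1 at 29.2 and 11.9 CPM in libraries 1 and 2. The long-minus-short difference of EpdSC library 1 was -0.08, against 0.78 in EpdSC library 2. The number of the 39 genes called in set BK was 20 without EpdSC library 1 and 31 without EpdSC library 2, and 3 and 2 without HFSC library 1 or 2. Of the 12 stress genes, 10 had lower levels in HFSC of set BK, against EpdSC, and 2 had higher levels in HFSC of set CL. Of the fibroblast markers, 3 of 5 tested were higher in HFSC of set BK and 2 of 6 in HFSC of set CL. Their part in these differences was not tested. In set CL the number called was 3 without EpdSC library A, 4 without EpdSC library B and 5 without HFSC library A.

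In set BK 1 wounded EpdSC library was set against the EpdSC of its set. Of the 39 genes, 1 rose and none fell against the 2 EpdSC libraries, where 1.77% of all genes tested rose and 6.21% fell. DESeq2 called more of the 39 genes than this test, and also more of all genes. The median log2 fold change was 0.33, beside -0.06 over all genes tested. Bnip3l was the gene that rose, at 277 CPM in wounded EpdSC and 85.5 and 91 CPM in EpdSC, a log2 fold change of 1.59 ± 0.34 (adjusted p = 0.0477). Ldha was at 1399 CPM in wounded EpdSC and 902 and 412 CPM in EpdSC, a log2 fold change of 1.03 ± 0.53 (adjusted p = 0.221). Both were higher in the wounded library than in either EpdSC library. Pgk1 was at 43.7 CPM in wounded EpdSC and 29.2 and 11.9 CPM in EpdSC. Bnip3 was at 63.6 CPM in wounded EpdSC and 23.5 and 25.1 CPM in EpdSC. Slc2a1, at 336 CPM in wounded EpdSC, lay between the EpdSC libraries. Hif1a was at 942 CPM in wounded EpdSC and 247 and 373 CPM in EpdSC, a log2 fold change of 1.54 ± 0.43 (adjusted p = 0.069). Hk2 was at 17.5 CPM in wounded EpdSC and 27.9 and 36.4 CPM in EpdSC, a log2 fold change of -0.94 ± 0.38 (adjusted p = 0.137). Without EpdSC library 1 or 2 the number called was 21 or 15, with 1 library on each side of the comparison assumed to vary like the rest. The leukocyte sum of this wounded library was 20.7 CPM, against 64.8 and 26.5 CPM in EpdSC, and 3 of 12 stress genes were lower in it.

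In tumours the integrin high cells were set against the Tbr skin stem cells. Of the 39 genes 14 rose and none fell, where 11.9% of all genes tested rose and 9.56% fell. The median log2 fold change was 1.49, beside 0.12 over all genes tested. The 39 genes took 1.16%, 1.45% and 1.20% of all counts in the HRas, HRas TbrKO and TbrKO integrin high tumour cells, against 0.339% in Tbr HFSC and 0.483% in Tbr EpdSC. The comparison asks how far cells of grafted tumours differ from stem cells of unwounded skin in this pathway. Genotypes and lineages are pooled in this test and their differences count as spread.

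Of the 14, Pkm rose most, at 2377, 2970 and 1339 CPM in HRas, HRas TbrKO and TbrKO integrin high cells, against 296 and 376 CPM in Tbr HFSC and Tbr EpdSC, a log2 fold change of 2.75 ± 0.51 (adjusted p = 0.0145). Pgk1 was at 70.3, 118 and 47.6 CPM in HRas, HRas TbrKO and TbrKO integrin high cells, against 9.78 and 16.5 CPM in Tbr HFSC and Tbr EpdSC, a log2 fold change of 2.59 ± 0.56 (adjusted p = 0.0217). Ldha was at 1688, 2487 and 870.2 CPM in HRas, HRas TbrKO and TbrKO integrin high cells, against 241 and 374 CPM in Tbr HFSC and Tbr EpdSC, a log2 fold change of 2.47 ± 0.60 (adjusted p = 0.0301). For each of these the TbrKO tumour had the lowest of the 3 tumour values. Ero1l was at 167, 224 and 115 CPM in HRas, HRas TbrKO and TbrKO integrin high cells, against 19.2 and 38.9 CPM in Tbr HFSC and Tbr EpdSC, a log2 fold change of 2.55 ± 0.58 (adjusted p = 0.0257). Slc16a1 was at 182, 164 and 120.5 CPM in HRas, HRas TbrKO and TbrKO integrin high cells, against 28.4 and 29.9 CPM in Tbr HFSC and Tbr EpdSC, a log2 fold change of 2.43 ± 0.45 (adjusted p = 0.0142). Pfkl was at 424, 538 and 342 CPM in HRas, HRas TbrKO and TbrKO integrin high cells, against 62.1 and 106 CPM in Tbr HFSC and Tbr EpdSC, a log2 fold change of 2.38 ± 0.39 (adjusted p = 0.0108). The tumour and Tbr values of these genes did not overlap.

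Both secreted factors rose in tumours. Adm was at 55.9, 86.2 and 37.6 CPM in HRas, HRas TbrKO and TbrKO integrin high cells, against 6.11 and 17.4 CPM in Tbr HFSC and Tbr EpdSC, a log2 fold change of 2.36 ± 0.65 (adjusted p = 0.041). Vegfa was at 164, 194 and 265 CPM in HRas, HRas TbrKO and TbrKO integrin high cells, against 29.3 and 82.6 CPM in Tbr HFSC and Tbr EpdSC, a log2 fold change of 1.89 ± 0.48 (adjusted p = 0.0335). The rest of the 14 were Gpi1, Aldoa, Tpi1, Pgam1, P4ha2 and Ankrd37, with log2 fold changes from 1.48 to 2.35. P4ha2 was at 45.8, 50.9 and 55 CPM in HRas, HRas TbrKO and TbrKO integrin high cells, against 6.73 and 15.1 CPM in Tbr HFSC and Tbr EpdSC, a log2 fold change of 2.21 ± 0.35 (adjusted p = 0.0103). Aldoa was at 1248, 1757 and 1128 CPM in HRas, HRas TbrKO and TbrKO integrin high cells, against 269 and 342 CPM in Tbr HFSC and Tbr EpdSC, with no overlap. Tpi1 was at 703, 894 and 513 CPM in HRas, HRas TbrKO and TbrKO integrin high cells, against 135 and 173 CPM in Tbr HFSC and Tbr EpdSC. Pgam1 was at 32.3, 38.3 and 13.6 CPM in HRas, HRas TbrKO and TbrKO integrin high cells, against 5.11 and 5.99 CPM in Tbr HFSC and Tbr EpdSC, and again the groups did not overlap. Slc2a1 was at 603, 722 and 705 CPM in HRas, HRas TbrKO and TbrKO integrin high cells, against 165 and 367 CPM in Tbr HFSC and Tbr EpdSC, and its log2 fold change of 1.35 ± 0.40 (adjusted p = 0.0507) just missed the threshold. Hif1a, at 553, 643 and 869 CPM in HRas, HRas TbrKO and TbrKO integrin high cells, against 241 and 616 CPM in Tbr HFSC and Tbr EpdSC, overlapped between the groups, and so did Bnip3l and Egln1. Of the 14 genes, 13 had also risen in the wounded HFSC lineage and 12 in wounded EpdSC. Of all 39 genes, 30 and 31 had risen in those 2 wound comparisons. The overlap of tumour and wound was not counted over all genes tested. The number called was 2 without Tbr HFSC, 7 without Tbr EpdSC, 6 without the HRas or the HRas TbrKO tumour and 17 without the TbrKO tumour. All 6 fibroblast markers were higher in the tumour cells, with sums of 2137, 888 and 1691 CPM, against 36.3 and 8.15 CPM in Tbr skin stem cells. All 5 endothelial markers were higher too, with sums of 175, 99.0 and 52.0 CPM, against 1.93 and 1.28 CPM. Of the 6 leukocyte markers 1 was higher, with sums of 269, 404 and 183 CPM, against 92.7 and 27.5 CPM, and of 2 adipocyte markers tested 1 was higher, with list sums of 120, 489 and 52.8 CPM, against 0.187 and 0.161 CPM. The stress sums were 4871, 4810 and 20120 CPM in HRas, HRas TbrKO and TbrKO integrin high cells, against 21970 and 29390 CPM in Tbr HFSC and Tbr EpdSC, and 1 of 12 stress genes was lower. The part of any of these in the changes was not tested.

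The integrin gates of the tumours were compared within genotype. None of the 39 genes was called by edgeR's quasi-likelihood test, where 0.124% of all genes tested were higher and 2.95% lower in integrin high cells. At an unadjusted p under 0.05 in the same test 11 were higher and 2 lower, but the share of all genes at that threshold is not given here. DESeq2 called 5 of the 39 higher and 2 lower. It called 1692 of 19441 genes in all, 20.4% of them higher. The log2 fold change was above 0 for 31 of the 39, a count not set beside all genes here. Its median was 0.34, beside 0.05 over all genes tested. Ldha was at 1688, 2487 and 870.2 CPM in integrin high cells, against 1298, 1666 and 684 CPM in integrin low cells of the same tumours, a log2 fold change of 0.46 ± 0.16 (adjusted p = 0.182). Slc2a1 was at 603, 722 and 705 CPM in integrin high cells, against 425, 642 and 393 CPM in integrin low cells, a log2 fold change of 0.53 ± 0.17 (adjusted p = 0.165). Pgk1 was at 70.3, 118 and 47.6 CPM in integrin high cells, against 56.3, 90.5 and 37.5 CPM in integrin low cells. All 3 were higher in the integrin high cells of each genotype. Bnip3 was at 62.1, 99.6 and 59.3 CPM in integrin high cells, against 56.1, 89.9 and 34.2 CPM in integrin low cells, also higher in each pair. Slc2a3 had the most negative log2 fold change, -2.65 ± 0.97 (adjusted p = 0.2), at 1.21, 2 and 2.51 CPM in integrin high cells, against 9.97, 52.4 and 2.48 CPM in integrin low cells. Of the leukocyte markers 4 of 5 tested fell in the same comparison, and so did 6 of 6 fibroblast markers. The fibroblast sums ran from 888 to 2137 CPM in integrin high cells, against 5516 to 11150 CPM in integrin low cells. Whether the 2 gates differed in the cells they held or in expression by the same cells was not tested. Without the TbrKO integrin high library 12 of the 39 genes were called, and without the TbrKO integrin low library 8.

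The TbrKO tumour was set beside the HRas-bearing tumours (HRas and HRas TbrKO), with 1 library per gate and no test. Hk2 was at 461 and 356 CPM in TbrKO integrin high and low cells, against 91.4 to 170.1 CPM in the 4 libraries of HRas-bearing tumours. Eno2 was at 42.1 and 13.1 CPM in TbrKO cells, against 0.822 to 4.88 CPM in HRas-bearing ones. Ldhb was at 32.4 and 18.0 CPM in TbrKO cells, against 1.75 to 7.21 CPM in HRas-bearing ones. Ndrg1 was at 2009 and 929 CPM in TbrKO cells, against 257 to 482 CPM in HRas-bearing ones. Egln3 went the other way, at 62.9 and 53.6 CPM in TbrKO cells, against 203 to 408 CPM in HRas-bearing ones. For these 5 genes both TbrKO libraries lay outside the range of the 4 HRas-bearing libraries.

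The balance of isoenzymes was followed in each library as the log2 ratio of the counts of one gene to those of the other, each with 0.5 added. These ratios were not corrected for gene length, so only their differences between libraries are read. Hk2/Hk1 was at -1.15 and -0.76 in wounded EpdSC, against -4.07 and -3.94 in EpdSC, and at -0.26 and -0.12 in the wounded HFSC lineage, against -1.23 and -1.31 in HFSC. In TbrKO tumours it was above 0, at 2.18 and 1.94 in the integrin high and low libraries. In BK wounded EpdSC it was -2.26, against -3.08 and -2.32 in EpdSC, above both and close to EpdSC library 2. Ldha/Ldhb was at 6.96 and 7.13 in the wounded HFSC lineage, against 2.34 and 2.69 in HFSC, and at 8.24 and 8.11 in wounded EpdSC, against 4.15 and 3.77 in EpdSC. It reached 8.80, 10.46 and 4.75 in the HRas, HRas TbrKO and TbrKO integrin high tumour cells, against 3.25 and 4.95 in Tbr HFSC and Tbr EpdSC. In BK wounded EpdSC it was 5.46, against 6.24 and 5.93 in EpdSC.

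Aldoa/Aldoc moved less, to 5.13 and 5.16 in the wounded HFSC lineage, against 3.90 and 4.16 in HFSC, and to 5.38 and 5.51 in wounded EpdSC, against 4.99 and 4.70 in EpdSC. For set BK the ratio was 3.25 and 3.37 in HFSC and 5.80 and 5.33 in EpdSC. In both sets the 2 HFSC libraries were below the 2 EpdSC libraries for Aldoa/Aldoc and for Ldha/Ldhb. Eno1/Eno2 was at 2.79 and 3.80 in the wounded HFSC lineage, against -1.91 and -2.90 in HFSC, and at 3.73 and 4.86 in wounded EpdSC, against -1.90 and -2.50 in EpdSC. With the Ensembl tables the same ratio was higher throughout, 9.85 and 10.7 in the wounded HFSC lineage, against 3.12 and 3.34 in HFSC, and the shift with the wound had the same sign. The ratio of Slc16a3 to Slc16a1 was at -0.59 and -0.44 in the wounded HFSC lineage, against -5.72 and -3.75 in HFSC. In wounded EpdSC that ratio was 1.58 and 1.07, against 0.69 and 0.46 in EpdSC.

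**Figure D4:**
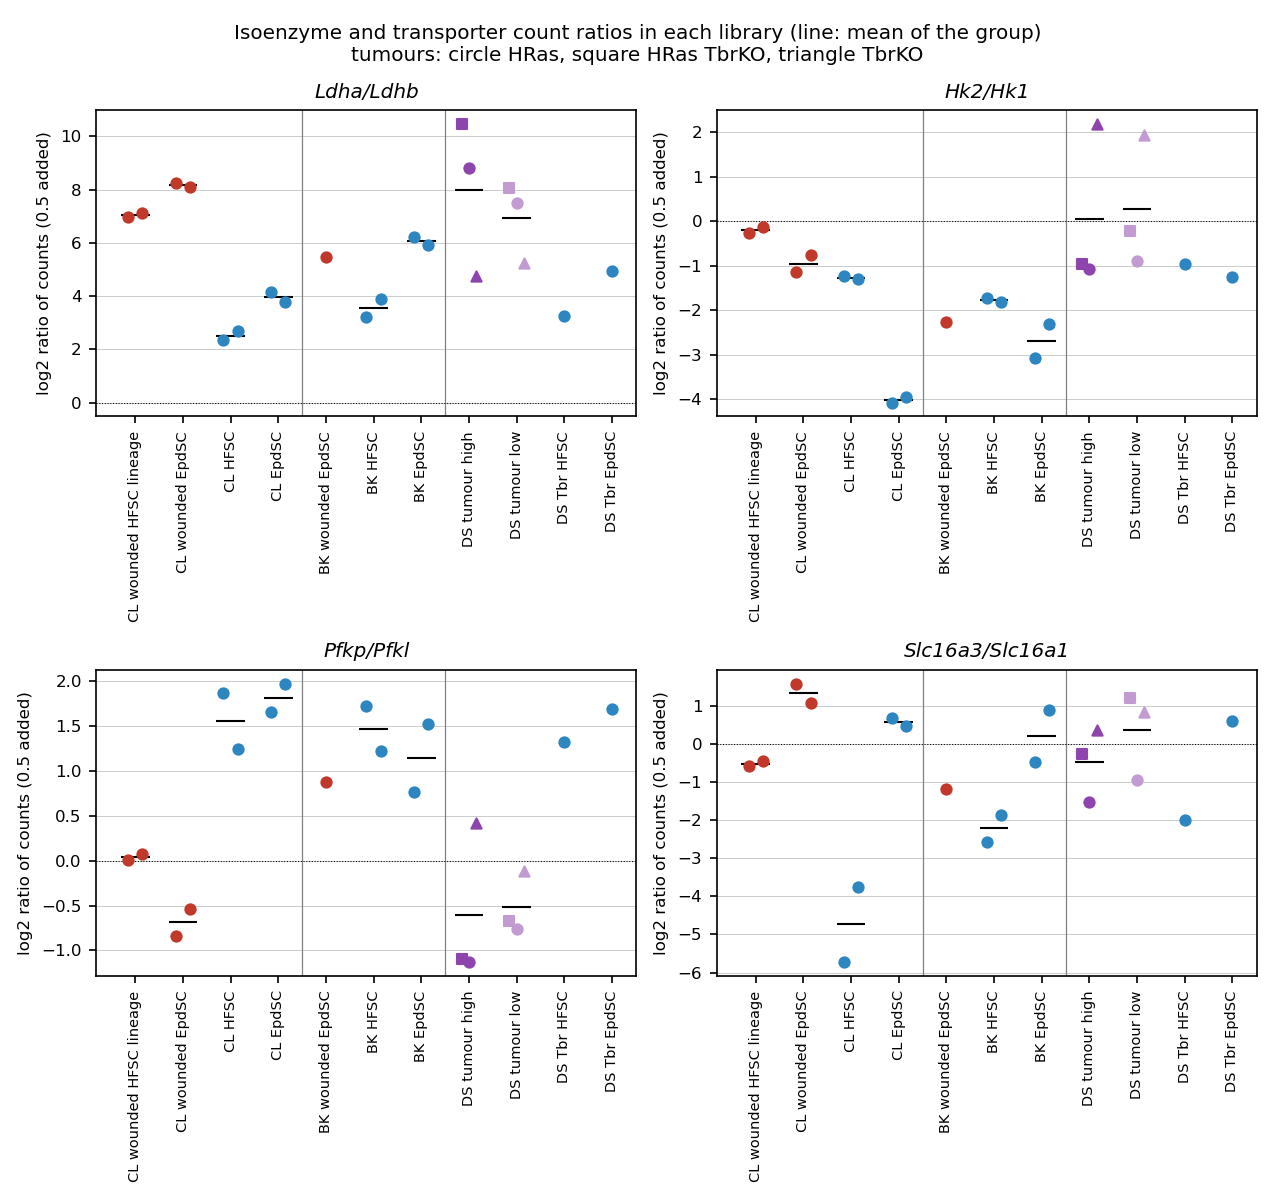
Log2 ratio of counts of 2 isoenzymes or carriers in every RNA library, 1 point a library, for Ldha/Ldhb, Hk2/Hk1, Pfkp/Pfkl and Slc16a3/Slc16a1. Ldha/Ldhb is above 6.9 in all 4 wounded CL libraries and below 4.2 in the 4 unwounded ones. The TbrKO tumours stand above the other tumours in Hk2/Hk1 and below them in Ldha/Ldhb.

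Other lists around the same pathway were counted for comparison. Of 21 nuclear genes of oxidative phosphorylation tested, 16 rose in the wounded HFSC lineage, with a median log2 fold change of 1.07, and 20 rose in wounded EpdSC, with a median of 1.27, and none fell. Of 24 genes of pyruvate entry and the citric acid cycle, 11 rose and 2 fell in the wounded HFSC lineage (median log2 fold change 0.53), and 8 rose and 1 fell in wounded EpdSC (median 0.38). Of 12 genes of the pentose phosphate and serine branches, 9 rose and 1 fell in the wounded HFSC lineage (median 0.82), and 7 rose and 2 fell in wounded EpdSC (median 1.45). Of 24 other HIF targets and regulators tested, 8 rose and 1 fell in the wounded HFSC lineage (median 0.09), and 11 rose and 7 fell in wounded EpdSC (median 0.53). All these counts stand beside 21.4% and 30.2% of all genes tested that rose in the 2 comparisons and medians of -0.10 and -0.04 over all genes tested. Of 9 minor glycolytic isoenzymes tested, none rose and 3 fell in the wounded HFSC lineage (median -1.09), and 3 rose and 3 fell in wounded EpdSC (median -0.23).

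Some single genes of these lists moved strongly. Fam162a, a mitochondrial protein gene induced by low oxygen, was at 1381 and 1349 CPM in the wounded HFSC lineage, against 45.5 and 65.2 CPM in HFSC, a log2 fold change of 4.61 ± 0.26 (adjusted p = 3.08e-05). Stc2, stanniocalcin 2, was at 5.41 and 4.59 CPM in the wounded HFSC lineage, against 0.325 and 0.539 CPM in HFSC. Of the same list as these genes, Rora and Tfrc fell in wounded EpdSC. Their log2 fold changes were -3.47 ± 0.58 (adjusted p = 0.00177) and -1.67 ± 0.37 (adjusted p = 0.0061). Pdk2, another pyruvate dehydrogenase kinase, fell to 5.03 and 3.52 CPM in the wounded HFSC lineage, against 43.7 and 46.5 CPM in HFSC, a log2 fold change of -3.41 ± 0.27 (adjusted p = 9.09e-05), while Pdk1 and Pdk3 had risen. Slc16a7, the monocarboxylate carrier MCT2, fell to 0.347 and 0.455 CPM in the wounded HFSC lineage, against 9.97 and 4.96 CPM in HFSC. Pfkfb2, which makes the same activator as Pfkfb3, fell to 14.5 and 28.7 CPM in wounded EpdSC, against 250.1 and 253 CPM in EpdSC, a log2 fold change of -3.55 ± 0.37 (adjusted p = 0.000222). Hk3, a hexokinase known from leukocytes, was at 3.04 and 4.92 CPM in wounded EpdSC and at 0 in both EpdSC libraries. Lox, lysyl oxidase, was at 17.8, 10.04 and 82.5 CPM in HRas, HRas TbrKO and TbrKO integrin high cells, against 0.436 and 0.0803 CPM in Tbr HFSC and Tbr EpdSC, and at 113, 99.96 and 42.8 CPM in integrin low tumour cells, which held more fibroblast markers.

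Open chromatin at the promoters was read from 1 peak list per population, with no replicate and no test. Of the 39 genes 36 matched a RefSeq promoter window, and Slc2a3, Bnip3l and Ndrg1 did not. A peak overlapped the window of 34 of the 36 in wound cells (94.4%, beside 77.2% of 11574 genes tested in RNA with a window) and of 32 in tumour cells (88.9%, beside 73.9%). In HFSC 33 of the 36 had one (91.7%, beside 80.3%) and in EpdSC 24 (66.7%, beside 59.8%). The EpdSC list is shorter, with 25742 peaks, against 55435 in HFSC, 54201 in tumour cells and 56865 in wound cells, so fewer windows with a peak in EpdSC cannot be told apart from fewer peaks called. In all 4 populations 22 of the 36 windows held a peak (61.1%, beside 56.4%).

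Of the other 14 windows, 8 lacked a peak in EpdSC alone, and these were the windows of Aldoa, Aldoc, Tpi1, Gapdh, Eno1, Egln1, Bnip3 and Car12. Adm had a promoter peak in wound and tumour cells, with fold enrichments of 3.78 and 3.75 given by the authors' peak caller, and none in HFSC or EpdSC. The wound peak lay at chr7:110627351-110627820, over the printed window. Eno2 had a promoter peak in wound cells alone, while its RNA fell in CL wounds. Gpi1 had no promoter peak in wound cells and one in each of the other 3. Slc16a3, the gene that rose most, had no peak over its window in any population, but wound cells had peaks upstream of it, at chr11:120945368-120945838 and chr11:120946113-120946593, that HFSC and EpdSC lacked. Hif1a had a wound peak at chr12:73901275-73901864 that HFSC and EpdSC lacked, with its summit 53 bases from the RefSeq gene start. The promoter window used for Hif1a, chr12:73907617-73907916, lay further downstream and held a peak in all 4.

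**Figure D5:**
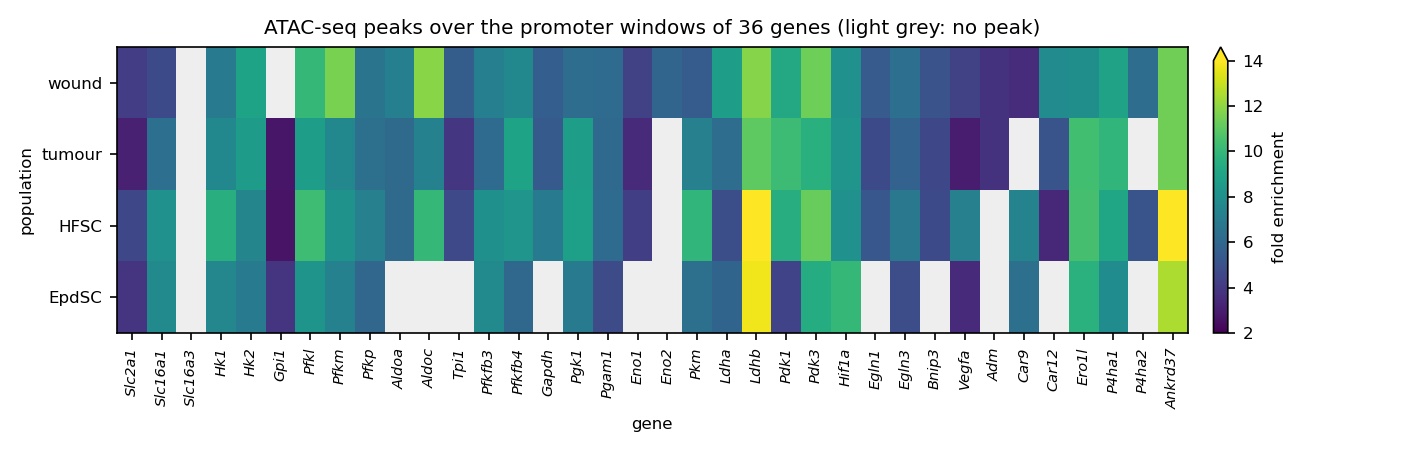
Fold enrichment of the highest peak over the promoter window of each of 36 genes in wound, tumour, HFSC and EpdSC cells, with empty cells where no peak was called. The values were set by the authors' peak caller within each population and rank genes only within one; 22 genes have a peak in all 4 and Slc16a3 in none.

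Over the gene bodies and 10000 bases on either side, the 39 genes held 160 wound peaks and 129 tumour peaks. Of the wound peaks, 48 at 26 genes overlapped no peak of HFSC or EpdSC, and 16 of these 48 overlapped a tumour peak. Of the tumour peaks, 33 at 23 genes overlapped no peak of HFSC or EpdSC. Over the whole lists, 39.4% of wound peaks and 47.2% of tumour peaks overlapped none. Car12 had 6 such wound peaks and Ndrg1 had 4.

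The HIF core was common in these promoters. At least 1 match was found in 32 of the 36 genes (88.9%), beside 65% of the 11574 genes, and in 40 of 50 single windows of the list (80%), beside 43.8% of 32851 windows in the table. The E-box CACGTG was found in 6 of 36 genes (16.7%), beside 11.2% of genes. The windows of the list held a median of 24 CG dinucleotides, beside 21 in all, and a core that contains CG is found more often where CG is common. Among windows with 16 to 27.75 CG, the quartiles of the list, 18 of 19 of the list held the core (94.7%), beside 72.8% of 4285 genes. Gpi1, Tpi1, Eno2 and Car12 had no match in this window, and of them Gpi1, Tpi1 and Car12 rose in both wound comparisons. Ldhb and Pfkm, which fell, each had a match.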

How the data were processed

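The 39 genes and all lists of genes were chosen with earlier results of these data known. Per the labels' protocols, RNA was extracted with Trizol and a Zymo kit, made into TruSeq libraries and read as single 51-cycle reads. The deposited table of the series holds whole counts per gene for all 21 RNA libraries; STAR is named in the submitters' processing notes, and the gene counter, strand setting and annotation are not given in the sources used here. Deposited tables with Ensembl identifiers hold counts for the 8 CL libraries and were used as an alternative. ATAC-seq peak lists came from MACS2 2.1.1.20160309 on mm10, per the file headers, and give the pileup, a signal of fragment coverage at the summit, and a fold enrichment, both set by the authors' caller; Bowtie and Picard are named in the submitters' processing notes.

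From the counts, each comparison was fitted with edgeR 4.0.16 (R 4.3.3, limma 3.58.1), with TMM factors, filterByExpr and the quasi-likelihood F test, and p-values were adjusted by Benjamini-Hochberg over all genes tested, with 0.05 as threshold. Set CL was fitted as 8 libraries in 4 groups, set BK as 5 in 3, the tumour gates as 6 with genotype as a block, and tumour against Tbr cells as 8 in 3. Set BK has 1 wounded library, assumed to vary like the other groups. The fits were tested on simulated counts with known changes. Standard errors are those of the fit. Alternatives were DESeq2 1.42.0, RLE factors, library totals alone, no filter, each library left out, a replicate block, other libraries in the fit, the Ensembl tables and, added after the data were seen, removal of the trend with gene span. Values in every library are given for Slc2a1, Ldha, Pgk1, Bnip3, the isoenzyme pairs and up to 10 genes per comparison with the largest change among those called; from other lists, the 2 highest and 2 lowest called were eligible. Promoters and gene spans came from RefSeq, GRCm38.p6. Libraries of one group differed by more than counting noise, so none was treated as a copy. Depth, 14216472 counts or more, leaves genes near 1 CPM, such as Eno2 and Car9, on few counts. Eno1 is on few counts in the table used but not in the Ensembl tables.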

Additional observations from a re-analysis of the deposited data

Results flagged for a closer look

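The response to the wound differed between the lineages, by the test of the difference itself in edgeR's quasi-likelihood fit, for 7 of the 39 genes, 3 higher and 4 lower, where 5.31% of all genes tested were higher and 10.5% lower. The number called was 1 to 16 when single libraries were left out, 1 without EpdSC library A and 16 without wounded EpdSC library B. Adm, with a difference of 2.69 (HFSC lineage minus EpdSC, log2), Hif1a, with 2.45, and Pfkfb3, with 1.42, responded more in the HFSC lineage. Slc2a3, with -3.84, Hk2, with -2.08, Slc16a1, with -1.64, and Pfkfb4, with -1.46, responded more in EpdSC. Hk2 and Slc16a1 started lower in EpdSC, and Adm and Pfkfb3 started lower in HFSC.

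Between HFSC and EpdSC, 3 genes had log2 fold changes of opposite sign in sets CL and BK with no overlap of libraries in either. Set CL was not tested against set BK, and of the 3 Car12 alone passed in both sets. Such genes were counted within the glycolysis and hypoxia list alone and not over all genes tested. Slc16a1 had a log2 fold change of 2.13 (adjusted p = 0.00235) in set CL and -1.83 (adjusted p = 0.139) in set BK. Car12 had 1.12 (adjusted p = 0.0129) in set CL and -2.12 (adjusted p = 0.0197) in set BK. Ndrg1 had -0.41 (adjusted p = 0.331) in set CL and 1.28 (adjusted p = 0.0524) in set BK, in edgeR's quasi-likelihood test.

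In set BK the wounded side was a single library. Between wounded EpdSC and EpdSC, 10 genes had log2 fold changes of opposite sign in sets CL and BK with no library overlap in either. This difference was not tested either, none of the 10 passed in set BK, and P4ha1 passed in neither set. The 10 were likewise counted within the list alone, so whether other genes did so as often is not known. In set BK no overlap means only that the single wounded library lay outside the range of the EpdSC libraries, which is a weak criterion. Above 0 in CL wounds and below 0 in the BK wound were Slc2a3 (2.60 in set CL and -0.85 in set BK), Hk2 (2.98 and -0.94), Pfkp (0.91 and -0.38), Pfkfb3 (2.25 and -1.55) and Pfkfb4 (1.68 and -0.90). So were Gapdh (1.49 in set CL, or 3.43 in the Ensembl tables, and -0.24 in set BK), Egln1 (1.19 and -1.19) and P4ha2 (1.76 and -0.40). Ldhb (-0.98 in set CL and 1.70 in set BK) and P4ha1 (-0.59 and 0.42) went the other way. The wounded cells of the 2 sets were sorted by different gates: YFP- was used in set CL and not in set BK.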

How the results depend on the processing

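Among the single genes followed, 1444 recomputed results kept their call or stayed without one. Another 24 passed the threshold where the reported fit did not, and 191 no longer passed. None changed sign where it passed in either fit, and changes of sign were not counted for results that passed in neither. With 1 count added in place of 0.5, no isoenzyme ratio moved by more than the SD of its group where the group had replicates. With the Ensembl tables Eno1/Eno2 moved far beyond it, to 3.12 and 3.34 in HFSC, against -1.91 and -2.90 in the table used.

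The wound comparisons of set CL were the most stable. The number of the 39 genes called was 29 to 31 in the HFSC lineage and 28 to 34 in EpdSC when single libraries were left out, and all genes called numbered 4064 to 5006 and 5735 to 9382. With library totals alone the median over all genes shifted by over 0.1, and 29.1% of calls were higher in the HFSC lineage (46.3% with TMM) and 42.3% in EpdSC (51.7% with TMM). The same setting gave 77.7% for HFSC against EpdSC in set CL (66.5% with TMM) and 19.8% for the difference of the responses (33.7% with TMM).

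The number of the 39 genes called for the wounded HFSC lineage against wounded EpdSC was 10 as reported, 17 with DESeq2, 6 with library totals alone and 2 with only the libraries of both groups, and 1 to 23 when single libraries were left out. All genes called there numbered 2847 as reported, 5284 with DESeq2, 4303 with no filter, 1037 with only those libraries and 541 to 7460 with single libraries left out. For HFSC against EpdSC in set CL all genes called were 1605 as reported, 2502 with only those libraries and 505 to 1072 with single libraries left out, when 3 to 7 of the 39 were called. In the difference of the responses, all genes called were 2339 as reported, 3909 with DESeq2 and 789 to 6499, with 1 to 16 of the 39. For HFSC against EpdSC in set BK, DESeq2 called 17 of the 39 in place of 9, and leaving out single libraries gave 2 to 31 and 1260 to 6486 genes in all.

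For the BK wound, 1 of the 39 was called as reported, 8 with DESeq2, 3 with no filter and 6 with the span trend removed, with 1169, 3370, 2131 and 2460 genes in all; single libraries left out gave 15 to 21 and 6635 to 6848. For the tumour gates, DESeq2 called 7 of the 39. There 446 genes were called in all as reported, 1692 with DESeq2, 238 with RLE factors, 777 with no filter, 0 with no genotype block and 242 with the span trend removed, and single libraries left out gave 0 to 12 and 0 to 3312. For tumour against Tbr cells, 8 of the 39 were called with only the libraries of both groups in place of 14, and all genes were 5721 with DESeq2 and 1192 with those libraries in place of 3323. Single libraries left out gave 2 to 17 and 909 to 5328.

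The labels do not say that a replicate letter or number marks a shared animal or day, and it was not used as a pairing. Deviations of same-lettered libraries correlated at 0.66 between the wounded groups, -0.34 and -0.32 between HFSC and the wounded groups, and -0.28 in set BK. As an alternative, a replicate block left 5 of the 39 called between the wounded groups, where Car12 no longer passed (adjusted p = 0.0593), and in the difference of the responses Pfkfb3 (adjusted p = 0.0514) and Pfkfb4 (adjusted p = 0.0549) no longer passed. Depth limits Eno1, Eno2 and Car9, which lie near 1 CPM in unwounded or wounded cells and rest on few counts there.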

Other observations

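Near copies of 2 of the genes held counts of their own. Eno1b, whose sequence is almost that of Eno1, had 419 and 341 raw counts in the wounded HFSC lineage, against 33 and 27 in HFSC. It had 551 and 532 in wounded EpdSC, against 42 and 34 in EpdSC. Aldoart1, a copy of Aldoa, had 1407 and 1256 raw counts in the wounded HFSC lineage, against 326 and 305 in HFSC, and 2396 and 1789 in wounded EpdSC, against 357 and 193 in EpdSC. Whether these reads came from the copies or from Eno1 and Aldoa cannot be told apart in the counts.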
